A study of Mus musculus with 8 samples.

Results

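The endothelial and angiogenic genes form a set of 35 that was chosen by name, with earlier results of these data known. They are genes that mark the cells lining blood vessels, and the ligands and receptors through which vessels grow and are kept. Each of the 35 has 1 probe set among the 22206 of the Clariom S Mouse array, found by its gene symbol. Of these probe sets, 33 name the gene alone, while that of *Nrp1* also names *Mir1903* and that of *Egfl7* also names *Mir126a*. The samples were gastrocnemius (GAS) muscles of male C57/Bl6j mice that were 22 weeks old at collection. One leg had received AAV sh-RNA MYTHO (MYTHO-KD, 4 arrays) at about 10 weeks of age, and the opposite leg AAV sh-RNA scrmb (scramble, 4 arrays), so both groups carried a virus and a short hairpin RNA. AAV is adeno-associated virus, here of serotype 1, and the hairpin is made from the U6 promoter, which is not specific to muscle fibres. Which cells of the muscle took up the virus was not measured on these arrays. The table gives for each probe set 1 average and 1 standard deviation (SD) per group as the authors computed them, on the log2 scale, with no values of single arrays. It does not keep which legs belong to 1 mouse, so the legs were compared as separate samples.

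Endothelial cells line every capillary between muscle fibres and deliver oxygen and fatty acids to them. Muscle fibres and other cells secrete VEGF ligands, which bind tyrosine kinase receptors on the endothelium, and mural cells secrete angiopoietin 1, which holds vessels stable through the receptor Tie2. Notch signals between neighbouring endothelial cells limit sprouting, and ETS and SOX transcription factors keep the endothelial programme on. In RNA from whole muscle, more endothelial cells and more RNA of these genes per cell cannot be told apart.

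The targeted gene, listed as *D230025D16Rik*, averaged 7.71 on the log2 scale in MYTHO-KD (SD 0.66) against 10.02 in scramble (SD 0.37). The difference of -2.31 (standard error 0.304, adjusted p = 0.0138, limma) left 20.2% of the scramble signal, in the direction of the labels. Markers of muscle fibres were near the top of the scale in both groups, with a median average of 19.33 in scramble and 19.34 in MYTHO-KD over 14 genes, and all 35 endothelial and angiogenic genes were marked as expressed in both groups. The median difference over all 22206 probe sets was -0.01 (log2).

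After 12 weeks of MYTHO-KD, most of the endothelial and angiogenic genes had slightly higher averages than in scramble muscles. None of the differences passed the adjustment over all probe sets. Of the 35 genes, 31 were higher whatever the p, or 88.6% against 46.9% of all probe sets. The 4 that were lower, against 51.4% of all probe sets, were *Flt4*, *Sox17*, *Robo4* and *Notch4*. The median difference was 0.22 (log2), and the differences ran from -0.34 to 0.98. Genes of one cell type vary together, so the 31 are not independent measurements, and the set was chosen with earlier results of these data known. By limma's moderated test, 5 genes were higher at an unadjusted p under 0.05, or 14.3% of the set against 6.48% of all probe sets. They were the VEGF ligand gene *Vegfb*, the VEGF receptor genes *Kdr* and *Nrp1*, the endoglin gene *Eng* and the secreted factor gene *Egfl7*. The share of all probe sets that passed upward rose with signal. It was 10.3% at a scramble average of 10 or more, where *Vegfb*, *Kdr* and *Eng* lie, and 4.81% under 8. No gene was lower at an unadjusted p under 0.05, against 5.52% of all probe sets. No gene reached 2-fold at an unadjusted p under 0.05, the rule of the study's methods, which 0.86% of all probe sets passed upward and 0.257% downward. After adjustment over all probe sets none passed 0.05 by limma, against 0.18% of all probe sets upward and 0.0946% downward, and the lowest adjusted p was 0.19. The 95% intervals had a median half-width of 0.48 (log2). For 30 of the 35 genes the interval stayed under a 2-fold rise, and for all 35 it stayed above a 2-fold fall.

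**Figure D1:**
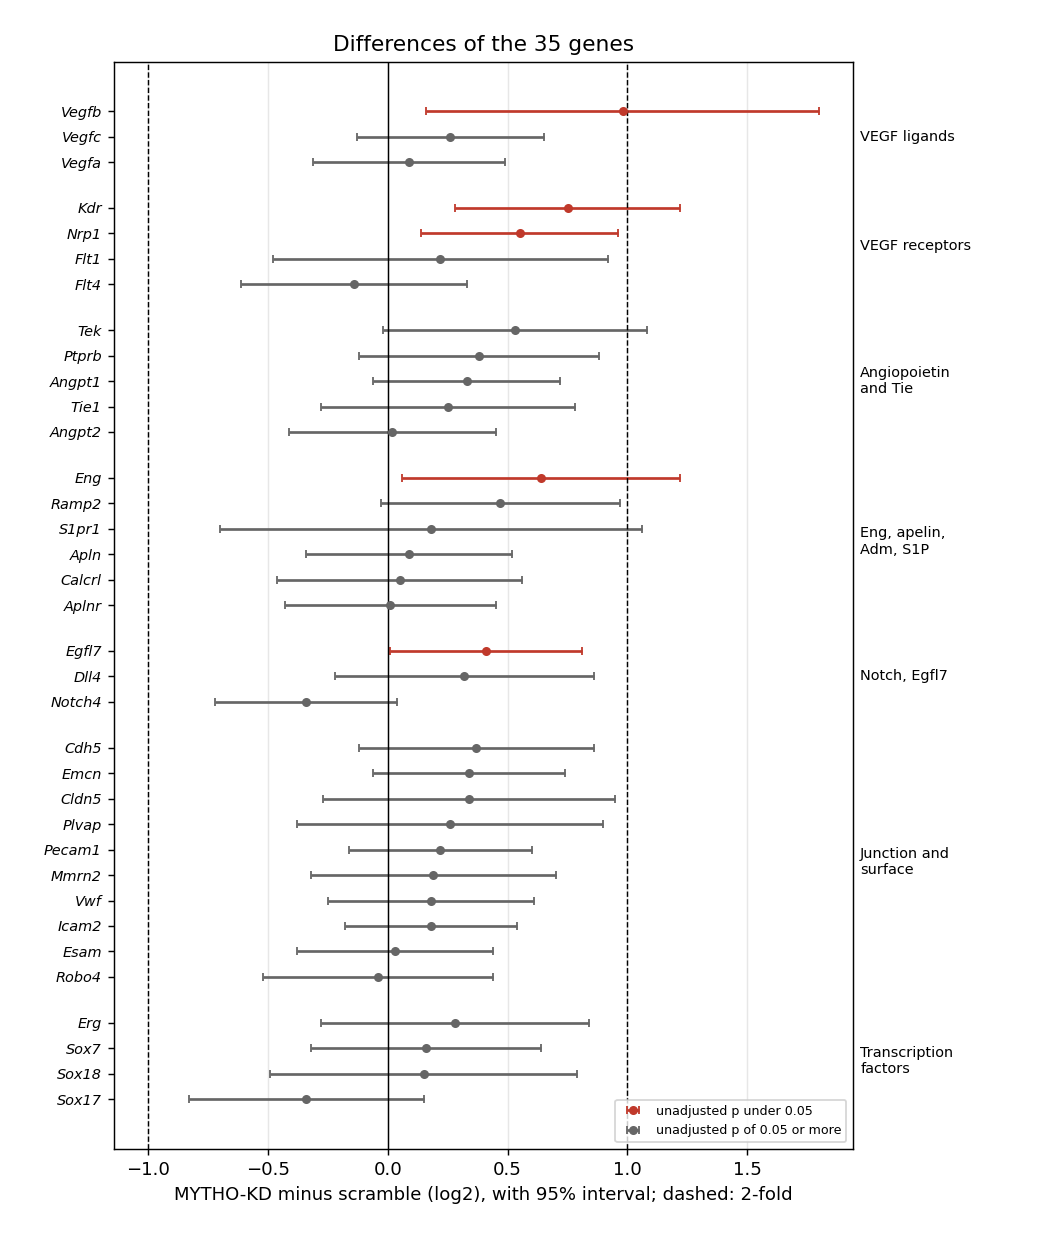
Difference between the MYTHO-KD and scramble averages of each of the 35 genes on the log2 scale, grouped by role, with 95% intervals from limma's moderated test as bars and dashed lines at 2-fold. The 5 genes with an unadjusted p under 0.05, in red, all lie to the right of 0, and no gene's average difference reaches 2-fold.

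Of the 3 VEGF ligand genes, *Vegfb* alone passed the unadjusted threshold. *Vegfb*, whose product binds VEGFR1 and NRP1 and is made in tissues that burn fatty acids, averaged 12.33 in MYTHO-KD (SD 0.60) against 11.35 in scramble (SD 0.78). This was the largest difference of the set, 0.98 (log2) or 1.97-fold, but with SDs among the widest, so that its interval ran from 0.16 to 1.80 (adjusted p = 0.326, limma). Without moderation of the variances it no longer passed the unadjusted threshold. *Vegfa*, which encodes the main growth factor of blood vessels, averaged 13.44 in MYTHO-KD and 13.35 in scramble (SDs 0.19 and 0.26). Its difference of 0.09 had an interval from -0.31 to 0.49, so that a rise or fall of 1.5-fold or more lay outside it. *Vegfc*, which encodes the growth factor of lymphatic vessels, averaged 8.21 and 7.95 in the same order, a difference of 0.26 with an interval from -0.13 to 0.65.

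Among the VEGF receptors, *Kdr* and *Nrp1* were higher and *Flt1* and *Flt4* did not pass. *Kdr* encodes VEGFR2, the receptor that carries most of the VEGF-A signal in endothelium. Its average was 11.89 in MYTHO-KD and 11.14 in scramble (SDs 0.41 and 0.22), and both SDs are smaller than the difference between the groups. The difference of 0.75 (standard error 0.218, 1.68-fold) had the lowest adjusted p of the set (adjusted p = 0.19, limma). *Nrp1*, which encodes the VEGF coreceptor neuropilin 1, averaged 9.66 in MYTHO-KD and 9.11 in scramble (SDs 0.29 and 0.19). It was higher by 0.55 (1.46-fold, adjusted p = 0.265, limma). *Flt1* encodes VEGFR1, which also has a soluble form that traps VEGF, and the table gives 1 probe set for the gene as a whole. It averaged 11.93 in MYTHO-KD with an SD of 0.34, and 11.71 in scramble with an SD of 0.74. The interval of its difference, -0.48 to 0.92, held changes as large as that of *Kdr*, and the difference between the genes was not tested. *Flt4*, the VEGFR3 gene of lymphatic endothelium, averaged 6.42 and 6.56 in the same order, a difference of -0.14 with an interval from -0.61 to 0.33.

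The 5 genes of the angiopoietin and Tie system all had higher averages in MYTHO-KD, with a median difference of 0.33 (log2), and none passed the unadjusted threshold. *Tek*, which encodes the angiopoietin receptor Tie2, came closest. It averaged 9.04 in MYTHO-KD and 8.51 in scramble (SDs 0.32 and 0.49, difference 0.53, interval -0.02 to 1.08, adjusted p = 0.432, limma). *Tie1*, the orphan receptor that pairs with Tie2, averaged 8.76 and 8.51, a difference of 0.25 with an interval from -0.28 to 0.78. *Ptprb*, which encodes the phosphatase VE-PTP that dephosphorylates Tie2, averaged 10.74 in MYTHO-KD with an SD of 0.17 and 10.36 in scramble with an SD of 0.47, a difference of 0.38 (adjusted p = 0.558, limma). The stabilising ligand gene *Angpt1* had little spread in scramble, with an average of 9.83 and an SD of 0.08, and averaged 10.16 with an SD of 0.29 in MYTHO-KD (difference 0.33, adjusted p = 0.492, limma). *Angpt2*, whose product loosens vessels during remodelling, averaged 5.64 in MYTHO-KD and 5.62 in scramble. Its difference of 0.02 had an interval from -0.41 to 0.45.

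Of the 6 genes of the other vessel receptors and peptides, 1 passed the threshold. *Eng* encodes endoglin, a coreceptor for BMP9 and TGF-beta on endothelium. It averaged 12.57 in MYTHO-KD and 11.93 in scramble. The arrays of MYTHO-KD lay close together, with an SD of 0.19, and those of scramble were spread more widely, with an SD of 0.60. The difference was 0.64 (1.56-fold, adjusted p = 0.364, limma). It did not pass the unadjusted threshold without moderation or with unequal variances. *Ramp2* and *Calcrl* encode the parts of the adrenomedullin receptor. *Ramp2* averaged 8.92 in MYTHO-KD and 8.45 in scramble (difference 0.47, interval -0.03 to 0.97), whereas *Calcrl* averaged 9.34 and 9.29 (difference 0.05, interval -0.46 to 0.56). The apelin gene *Apln* averaged 5.81 in MYTHO-KD and 5.72 in scramble (interval of the difference -0.34 to 0.52), and its receptor gene *Aplnr* 8.02 and 8.01 (-0.43 to 0.45). *S1pr1*, whose product is a receptor for sphingosine 1-phosphate that tightens the vessel wall, had the widest spread of the set, where the SD was 0.65 in MYTHO-KD but 0.84 in scramble. Its averages of 8.61 and 8.43 gave a difference of 0.18 with an interval from -0.70 to 1.06, so a rise of up to 2-fold could not be told from no change.

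*Egfl7*, which encodes a protein that endothelial cells secrete into their matrix, averaged 8.26 in MYTHO-KD and 7.85 in scramble (SDs 0.25 and 0.21). It was higher by 0.41 (1.33-fold, adjusted p = 0.404, limma). With a trend and robust moderation it did not pass the unadjusted threshold. The Notch ligand gene *Dll4*, which marks sprouting tips and arteries, averaged 8.88 in MYTHO-KD and 8.56 in scramble (difference 0.32, interval -0.22 to 0.86). The endothelial Notch receptor gene *Notch4* went the other way, with an average of 5.77 in MYTHO-KD and 6.11 in scramble (SDs 0.11 and 0.26). This difference of -0.34 had an interval from -0.72 to 0.04 (adjusted p = 0.464, limma). In the table the probe set of *Notch4* spans chr17:34226175-34588543 (mm10), whereas RefSeq places the gene from 34564286 to 34588543, so its span covers neighbouring genes as well.

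None of the 10 junction and surface markers passed the unadjusted threshold in limma's test, although 9 had higher averages in MYTHO-KD, with a median difference of 0.205. *Cdh5*, the VE-cadherin gene of endothelial junctions, averaged 13.22 in MYTHO-KD and 12.85 in scramble (SDs 0.33 and 0.37). Its difference of 0.37, the largest of the group, was about the size of the spread between arrays (interval -0.12 to 0.86, adjusted p = 0.567, limma). *Pecam1*, which encodes the adhesion molecule CD31, averaged 10.19 and 9.97 in the same order (SDs 0.13 and 0.26, difference 0.22, interval -0.16 to 0.60). *Emcn*, the endomucin gene of capillaries and veins, averaged 10.59 in MYTHO-KD and 10.25 in scramble (SDs 0.26 and 0.20, difference 0.34, interval -0.06 to 0.74, adjusted p = 0.495, limma). The tight junction gene *Cldn5* had the same difference of 0.34 with wider SDs of 0.55 and 0.39, and its interval ran from -0.27 to 0.95. The other differences were 0.26 for *Plvap*, the gene of the diaphragms of fenestrae and caveolae, 0.19 for *Mmrn2*, which encodes an endothelial matrix protein, and 0.18 for *Vwf*, the gene of von Willebrand factor. The adhesion genes *Icam2* and *Esam* had differences of 0.18 and 0.03, and *Robo4*, which encodes an endothelial guidance receptor, had one of -0.04. The intervals of these 6 genes all held 0 and lay between -0.52 and 0.90.

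The 4 transcription factor genes did not pass the threshold either. *Erg*, which encodes the ETS factor that maintains endothelial identity, averaged 9.04 in MYTHO-KD and 8.76 in scramble (SDs 0.34 and 0.50, difference 0.28, interval -0.28 to 0.84). Of the SoxF genes, *Sox7* averaged 7.02 in MYTHO-KD and 6.86 in scramble (interval of the difference -0.32 to 0.64), and *Sox18* 6.71 and 6.56 (-0.49 to 0.79). *Sox17*, the SoxF gene of arteries, averaged 4.44 with an SD of 0.18 in MYTHO-KD and 4.78 with an SD of 0.45 in scramble. Its signal was, like that of *Angpt2*, below the 30th percentile of all probe sets, and its difference of -0.34 had an interval from -0.83 to 0.15.

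**Figure D2:**
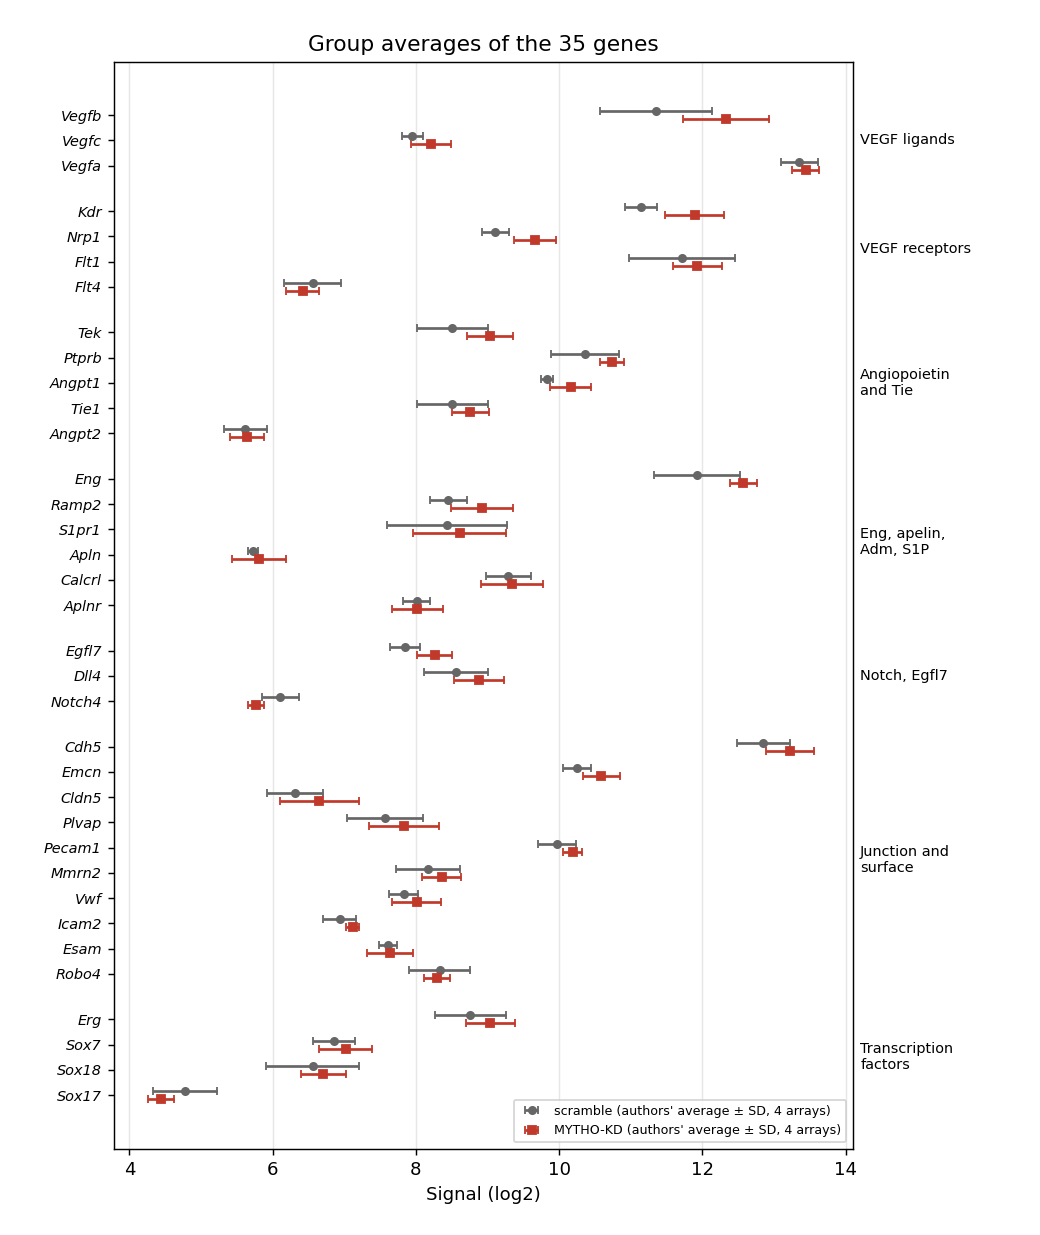
The authors' average signal of each of the 35 genes on the log2 scale, with bars for the authors' SD over 4 arrays, in scramble (grey circles) and MYTHO-KD (red squares), grouped by role. The bars of *Kdr* and *Nrp1* do not overlap between the groups, while those of *Flt1* and *S1pr1* overlap widely.

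The spread between arrays had the same median in both groups, with an SD over the 35 genes of 0.31 in MYTHO-KD and 0.31 in scramble, against 0.27 in both groups over all probe sets. The SD was larger in scramble for 21 genes and larger in MYTHO-KD for 14. The differences were larger among genes with a high signal. The 8 genes with a scramble average of 10 or more had a median difference of 0.38, and the 14 genes under 8 had one of 0.15. Over all probe sets with a scramble average of 10 or more the median difference was 0.00, and 10.3% were higher at an unadjusted p under 0.05, against 4.81% of those under 8.

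**Figure D3:**
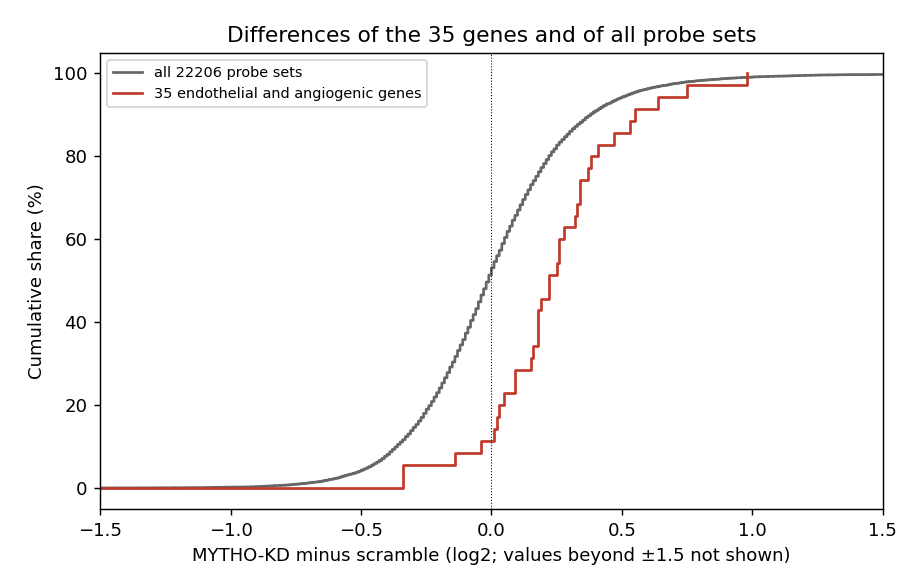
Cumulative share of the 35 genes (red) and of all 22206 probe sets (grey) by their difference between MYTHO-KD and scramble on the log2 scale. The curve of the 35 genes lies to the right of that of all probe sets over most of its length, with medians of 0.22 and -0.01, and ends at 0.98.

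The stretch of 250 bases before the start of each of the 5 genes past the unadjusted threshold is given here, since ETS factors such as the product of *Erg* bind promoters of many endothelial genes. The sequences are from RefSeq on GRCm38.p6, the assembly of mm10, written along the strand of the gene. Where RefSeq lists several starts, the one nearest to the start of the gene in the table was used. They lie at chr5:75978456-75978705 (- strand) for *Kdr*, chr8:128358823-128359072 (+ strand) for *Nrp1*, chr19:6987652-6987901 (- strand) for *Vegfb*, chr2:32646345-32646594 (+ strand) for *Eng* and chr2:26580833-26581082 (+ strand) for *Egfl7*. Capitals mark the hexamers AGGAAG and CCGGAA on either strand, 2 forms of the core that ETS factors bind.
Kdr: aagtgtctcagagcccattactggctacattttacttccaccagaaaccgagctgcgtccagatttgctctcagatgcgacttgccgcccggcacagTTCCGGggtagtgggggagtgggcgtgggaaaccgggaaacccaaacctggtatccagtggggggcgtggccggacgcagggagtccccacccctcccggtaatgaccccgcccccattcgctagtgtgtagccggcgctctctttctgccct
Nrp1: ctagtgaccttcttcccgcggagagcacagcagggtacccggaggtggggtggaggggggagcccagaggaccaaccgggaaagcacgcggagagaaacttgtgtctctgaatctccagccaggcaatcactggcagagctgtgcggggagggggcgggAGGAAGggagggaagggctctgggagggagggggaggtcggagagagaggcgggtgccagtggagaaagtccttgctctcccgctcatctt
Vegfb: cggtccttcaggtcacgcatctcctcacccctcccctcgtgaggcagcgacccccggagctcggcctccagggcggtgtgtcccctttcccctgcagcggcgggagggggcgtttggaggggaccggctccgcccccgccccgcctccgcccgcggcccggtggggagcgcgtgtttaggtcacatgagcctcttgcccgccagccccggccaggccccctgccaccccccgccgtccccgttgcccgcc
Eng: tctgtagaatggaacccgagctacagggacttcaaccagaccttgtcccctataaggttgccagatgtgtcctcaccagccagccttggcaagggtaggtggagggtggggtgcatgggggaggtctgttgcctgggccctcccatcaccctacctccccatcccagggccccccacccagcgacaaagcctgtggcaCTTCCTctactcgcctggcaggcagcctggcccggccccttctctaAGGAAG
Egfl7: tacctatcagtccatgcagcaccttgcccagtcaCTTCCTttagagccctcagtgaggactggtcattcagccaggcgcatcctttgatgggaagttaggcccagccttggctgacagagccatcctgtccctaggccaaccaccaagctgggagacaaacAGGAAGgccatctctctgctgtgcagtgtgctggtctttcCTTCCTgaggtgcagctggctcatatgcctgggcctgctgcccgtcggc

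One or the other hexamer is present in 4 of these 5 stretches, and *Vegfb* has neither. *Egfl7* has 3 copies of AGGAAG, *Eng* has 2 and *Nrp1* has 1, and *Kdr* has 1 copy of CCGGAA. The table of RefSeq promoters used here holds a stretch for 19 of the 35 genes, and 11 of them (57.9%) hold a hexamer, against 38.2% of all 32851 stretches of the same length in that table. AGGAAG is in 10 of the 19 stretches, against 29.5% of all stretches, and CCGGAA is in 1 of the 19, against 12%. In the table, on mm10, the genes span chr5:75932827-75978458 for *Kdr*, chr8:128359046-128505476 for *Nrp1*, chr19:6982472-6987651 for *Vegfb*, chr2:32646595-32682669 for *Eng* and chr2:26580014-26593120 for *Egfl7*, whose printed stretch therefore lies inside the span. The hexamers are matches of letters, and binding was not measured.

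Of the 30 further endothelial markers outside the set, 7 (23.3%) were higher past the unadjusted threshold of limma's test, against 6.48% of all probe sets. None was lower at that threshold, against 5.52% of all probe sets, but 9 of the 30 had lower averages in MYTHO-KD. The median difference was 0.19, the differences ran from -0.26 to 0.90, and the largest were those of *Klf4*, *Cyyr1* and *Cd93*. The part of cells other than endothelium in the differences of this list was not tested. *Klf4*, a transcription factor gene that flow induces in endothelium, averaged 7.49 in MYTHO-KD with an SD of 0.73 and 6.59 in scramble with an SD of 0.08 (difference 0.90, adjusted p = 0.248, limma). *Cd93*, which encodes a surface glycoprotein of endothelial and myeloid cells, averaged 8.55 and 7.86 (SDs 0.24 and 0.09, difference 0.69, adjusted p = 0.125, limma). *Cyyr1* was higher by 0.71 (adjusted p = 0.201, limma). All 15 capillary genes for lipid and other transport had higher averages in MYTHO-KD, against 46.9% of all probe sets, with a median of 0.36. The list is not restricted to endothelium, and its gene *Fabp4* is also on the list of adipocyte markers. Of the 15 genes, 5 (33.3%) passed the unadjusted threshold upward, against 6.48% of all probe sets. They include *Slc16a1*, the gene of the lactate transporter MCT1, which was higher by 1.03 (2.04-fold, adjusted p = 0.141, limma) and which muscle fibres express as well. *Lpl*, the lipoprotein lipase gene that fibres and adipocytes express for use on capillary walls, was higher by 0.90 with SDs of 0.67 and 0.59 (adjusted p = 0.328, limma). The fatty acid binding protein gene *Fabp5* was higher by 0.89 (adjusted p = 0.123, limma). The other two were the carbonic anhydrase gene *Car4*, higher by 0.49, and *Ly6c1*, a surface marker of capillary endothelium in mice, higher by 0.51.

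Genes that tell vessel types apart passed the unadjusted threshold in 1 to 4 cases per list, beside 6.48% of all probe sets upward and 5.52% downward. Of 10 arterial genes, 1 was higher at the unadjusted threshold, the lipoxygenase gene *Alox12* (difference 1.01, adjusted p = 0.146, limma), which platelets also express. Of 9 venous genes, 2 (22.2%) were higher and 2 were lower. *Nrp2*, the coreceptor gene of veins and lymphatics, averaged 7.18 in MYTHO-KD and 6.39 in scramble (difference 0.79), and the adhesion gene *Selp* was higher by 0.83. *Nr2f2*, the transcription factor gene that specifies veins and is also expressed by mesenchymal cells, averaged 11.70 in MYTHO-KD and 12.18 in scramble, a difference of -0.48 (adjusted p = 0.395, limma). The other one that was lower was the chemokine receptor gene *Ackr1* (difference -0.33). Of 7 lymphatic genes, *Nrp2* and *Lyve1* (28.6%) passed upward. *Lyve1*, which macrophages express too, was higher by 0.73. The lymphatic master gene *Prox1* averaged 6.99 in MYTHO-KD and 7.20 in scramble, a difference of -0.21 with an interval from -0.75 to 0.33. Of 13 genes of sprouting tips, *Ednrb* (difference 1.04, adjusted p = 0.126, limma) and the platelet-derived growth factor gene *Pdgfb* (difference 0.83, adjusted p = 0.199, limma) were higher at the unadjusted threshold, or 15.4%. The tip marker *Esm1* averaged 5.11 in MYTHO-KD and 5.52 in scramble, a difference of -0.41 with an interval from -0.84 to 0.02. *Ackr1*, *Car4*, *Ly6c1*, *Prox1* and *Esm1*, like *Egln1*, *Car9*, *Hif1a*, *Adm*, *Adgrl4*, *Des*, *Acta1*, *Myh4* and *Ryr1*, were named after their values were seen.

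Of 37 other angiogenic ligands and receptors, 7 (18.9%) were higher at the unadjusted threshold and none was lower, against 6.48% and 5.52% of all probe sets. Among the 7 are *Nrp2* and *Pdgfb*, which the lists above count as well. The median difference was 0.12, and 11 of the 37 had lower averages in MYTHO-KD. The fibroblast growth factor gene *Fgf1* was higher by 1.09 with SDs of 0.88 and 0.64 (adjusted p = 0.322, limma). *Fzd4*, which encodes a receptor for norrin and Wnt ligands on endothelium, averaged 11.19 in MYTHO-KD and 10.24 in scramble (difference 0.95, adjusted p = 0.179, limma). Of 14 further Notch genes, the feedback gene *Nrarp* alone was higher at the unadjusted threshold (7.14%), by 0.50. The coactivator gene *Maml1* alone was lower there, with a difference of -0.46. Of 16 genes of angiogenesis inhibitors, *Sparc* and *Timp2* (12.5%), both genes of matrix proteins, were higher by 0.69 and 0.54.

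The hypoxia genes held the only difference of the vascular lists that passed the adjustment over all probe sets. Of 18 genes, 4 (22.2%) were higher and 1 was lower at the unadjusted threshold, against 6.48% and 5.52% of all probe sets. The median difference was 0.14. *Pfkfb3*, which encodes an activator of glycolysis, averaged 13.96 in MYTHO-KD and 15.99 in scramble (SDs 0.81 and 0.39), a difference of -2.03 (adjusted p = 0.0392, limma). *Egln3*, a gene that HIF induces and whose product marks HIF for breakdown, averaged 13.75 in MYTHO-KD and 11.67 in scramble (SDs 1.14 and 0.58, difference 2.08, adjusted p = 0.101, limma). This probe set lies at chr12:54178981-54203874, the position of the gene in RefSeq. The table gives the same symbol to a second, dimmer probe set at chr15:3573421-3574444, outside the gene, where the averages were 7.15 and 7.87 and the difference -0.72 (adjusted p = 0.353, limma). *Epas1*, which encodes HIF-2 alpha and is abundant in endothelium, averaged 12.81 and 11.91 (SDs 0.34 and 0.53, difference 0.90, adjusted p = 0.197, limma). The others that were higher were *Egln1* (0.59) and *Car9* (0.70), both genes of the HIF pathway. *Hif1a* averaged 10.57 and 10.43, and *Adm*, a target of HIF that encodes the ligand of the *Ramp2* and *Calcrl* receptor, 7.13 and 7.05. Muscle fibres express *Pfkfb3*, *Egln3* and *Epas1*, and their part in these differences was not tested.

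**Figure D4:**
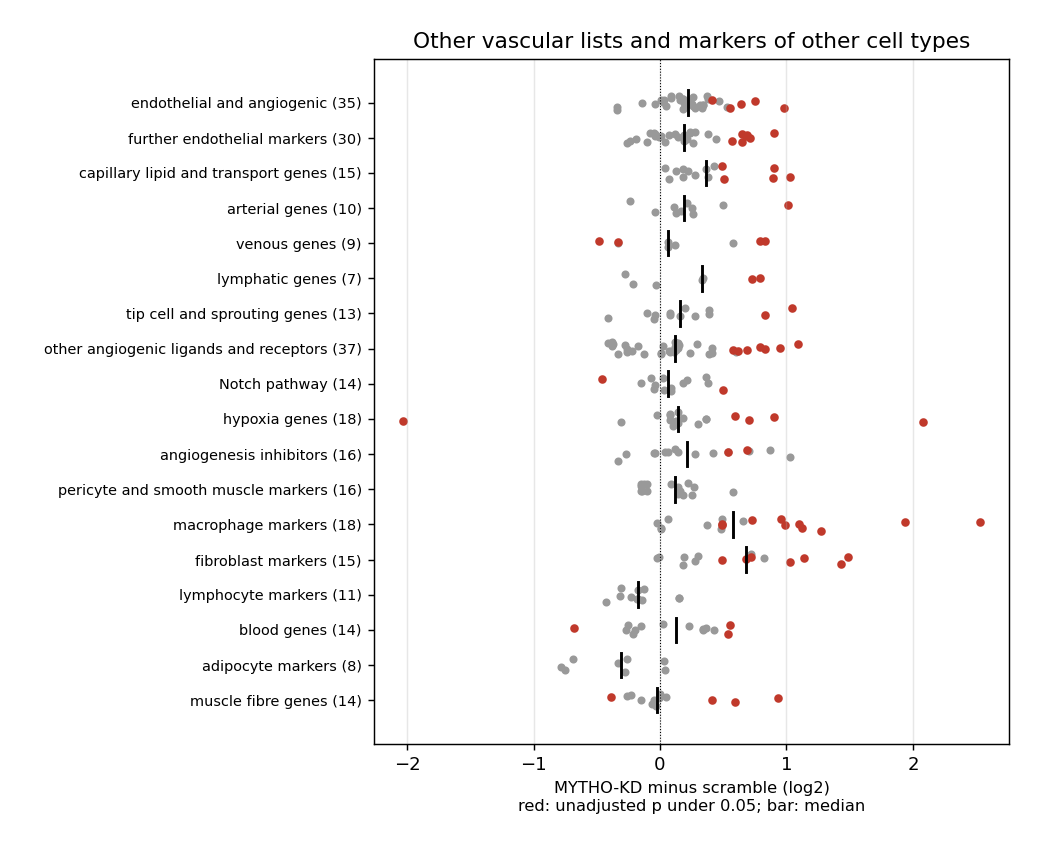
Difference between MYTHO-KD and scramble on the log2 scale for each gene (points) of the 35 endothelial and angiogenic genes and of 17 other lists, with the number of probe sets in brackets, genes at an unadjusted p under 0.05 in red and the median of each list as a bar. The medians of the macrophage and fibroblast lists, 0.575 and 0.68, lie to the right of the 0.22 of the endothelial and angiogenic genes, and those of the lymphocyte and adipocyte lists lie left of 0.

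Markers of other cells of the muscle differed between the groups as well. Over all probe sets, 6.48% were higher and 5.52% were lower at the unadjusted threshold. Of 16 pericyte and smooth muscle markers, none passed the unadjusted threshold in limma's test, with a median difference of 0.115 and summed linear signals of 280043 in MYTHO-KD and 259684 in scramble, a ratio of MYTHO-KD to scramble of 1.08. *Des*, the desmin gene that muscle fibres express as well, made up 80.4% and 78.7% of these sums, and without it the ratio was 0.992. The largest difference among them was that of the myosin kinase gene *Mylk*, 0.58 (adjusted p = 0.462, limma). The same ratio of summed signals was 1.29 for the 35 endothelial and angiogenic genes, and 1.37 without *Vegfa*, the brightest. For the 30 further endothelial markers it was 1.14, and 1.22 without *Adgrl4*, their brightest in scramble. Of 18 macrophage markers, 17 were higher, and 10 of the 18 (55.6%) were higher at the unadjusted threshold. The median was 0.575, with summed signals of 6272 and 2939, a ratio of 2.13. *Cd68*, a lysosomal protein gene of macrophages, averaged 9.43 in MYTHO-KD and 6.90 in scramble (difference 2.53, adjusted p = 0.0182, limma), *Lyz2* was higher by 1.94 (adjusted p = 0.0277, limma) and *C1qb* by 1.27 (adjusted p = 0.0754, limma). Of 15 fibroblast markers, 7 (46.7%) were higher at the unadjusted threshold. They were led by the proteoglycan gene *Lum* (difference 1.49, adjusted p = 0.0443, limma), the collagen gene *Col3a1* (1.43, adjusted p = 0.102) and *Pi16* (1.14, adjusted p = 0.126). The median of the list was 0.68, with summed signals of 199042 and 147475, a ratio of 1.35. *Nrp1*, *Eng* and *Egln3* are not restricted to endothelium, and the part of macrophages and fibroblasts in the differences of the 35 genes was not tested. All markers of the pericyte, macrophage and fibroblast lists were marked as expressed in both groups.

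Blood genes had a median difference of 0.125 over 14 probe sets, with summed signals of 231861 and 171375, a ratio of 1.35. The beta globin probe set of *Hbb-bs* and *Hbb-b1* averaged 16.19 in MYTHO-KD and 15.64 in scramble (difference 0.55, adjusted p = 0.385, limma), and *Alas2*, the haem synthesis gene of red cells, was higher by 0.54, while the platelet gene *Gp9* had a difference of -0.68 (adjusted p = 0.325, limma). None of 11 lymphocyte markers and none of 8 adipocyte markers passed the unadjusted threshold in limma's test, with medians of -0.17 and -0.305. Of all probe sets, 6.48% passed it upward and 5.52% downward. The largest difference among the adipocyte markers was -0.78 for *Cfd*, which varied by SDs of 1.64 and 2.03. Among the muscle fibre genes, myoglobin (*Mb*) averaged 19.75 and 18.82 (difference 0.93, adjusted p = 0.0754, limma), and *Myh1* was higher by 0.59. *Myh2* averaged 19.91 with an SD of 0.01 in MYTHO-KD and 19.50 in scramble, and *Acta1* and *Myh4* were at 19.93, the highest average of the table, in both groups with an SD of 0.00. Probe sets there are at or near saturation, so no size is given for *Myh2*, those of *Mb* and other bright genes may be understated, and the median of the list is limited in the same way. The calcium channel gene *Ryr1* was lower, with a difference of -0.39, and the median of the 14 genes was -0.02. The share of fibre RNA and blood in the differences of the 35 genes was not tested.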

How the data were processed

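RNA of GAS muscles was measured on Clariom S Mouse arrays, 4 per group. Per the methods and the file headers, the authors processed the arrays with default parameters in the Transcriptome Analysis Console (SST-RMA signals, mm10 annotation); the labels name RMA and Affymetrix Expression Console. They deposited log2 averages, SDs and expression flags per group for 22206 probe sets, with a decimal comma. SST-RMA transforms probe signals to widen the range of folds, so folds may be larger than with plain RMA. The authors' fold change, p-value and false discovery rate columns were not used, and 0 columns of single arrays were left unused. The kind of average is not stated, and the test treats it as a plain mean. What another kind would change in these values could not be tested without single arrays.

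Groups came from the sample labels. Differences are MYTHO-KD minus scramble averages. The pooled variance (6 residual degrees of freedom) was moderated with squeezeVar of limma 3.58.1 in R 4.3.3 (prior SD 0.284, prior degrees of freedom 5.85), p-values were two-sided, and Benjamini-Hochberg adjustment ran over all probe sets. A planned limma fit on single arrays had none to use. The test was run on simulated arrays that were independent of each other, with plain means and with a robust kind of average. Agreement with limma on the single simulated arrays was required for plain means only. Paired legs were not simulated. The p-values set each difference against the spread between these samples, with the legs treated as unpaired. Arrays have no depth; their number limits the precision.

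The 35 genes and the 17 other lists were chosen with earlier results of these data known, so no set was tested. Outside the 35, up to 3 genes per list were named, by size of difference among those under p 0.05, or else the 1 with the largest difference. One gene that this rule names is not reported here. All but 1 list gene (*Trbc2*) had a probe set; a gene with several was given by the brightest. Genes of the 35 were left out of other lists, but these lists share some genes with each other, so their counts are not separate. Alternatives covered the variance model, dim probe sets, centring, thresholds and shared probe sets.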

Additional observations from a re-analysis of the deposited data

How the results depend on the processing

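No paired analysis was possible because the table holds 1 average per group and no values of single arrays, so legs could not be paired by mouse, nor single arrays left out. The number of endothelial and angiogenic genes higher at an unadjusted p under 0.05, which was 5, fell to 3 without moderation of the variances and to 3 with unequal variances, where *Eng* and *Vegfb* no longer passed. It was 3 when only probe sets naming 1 gene were kept, because *Nrp1* and *Egfl7* share theirs with a microRNA, and 1, that of *Kdr*, at an unadjusted p under 0.01. At 1.5-fold in place of 2-fold, 3 genes passed with an unadjusted p under 0.05 (*Kdr*, *Eng* and *Vegfb*), against 0. *Egfl7* did not pass with a trend and robust moderation, where the count was 4. The other 34 values of the counts, of the median and of the targeted gene were classed as unchanged, that count among them. For a count this meant within 1.5-fold of the main one, and for the median the same sign and a shift smaller than the typical SD. The targeted gene kept its direction and its side of the threshold. Of the 157 values for single genes and other lists, 152 kept their direction and, for single genes, their side of the threshold. The count at an adjusted p under 0.05 was 0 in every setting tried, and 0 at an adjusted p under 0.1. The gene of each list that was brightest in scramble was also left out of the ratio of summed signals, a step chosen after seeing the data. The ratio then went from 1.08 to 0.992 for pericyte and smooth muscle markers and from 1.29 to 1.37 for the 35 genes. For macrophage markers it went from 2.13 to 2.42, for fibroblast markers from 1.35 to 1.62 and for blood genes from 1.35 to 1.4. The largest move was that of the hypoxia genes, from 0.901 to 1.61 without *Pfkfb3*. Venous genes went from 1.03 to 1.31, lymphatic genes from 1.04 to 1.28 and angiogenesis inhibitors from 1.31 to 1.56. Capillary genes went from 1.31 to 1.28. Leaving out dim probe sets removed 2 of the 35 genes. Whether a single array carries a difference could not be tested.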
